A study of Mus musculus with 12 samples.

Results

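The genes described here are 33 genes that microglia, the resident macrophages of the brain, express in their homeostatic state or in the state associated with disease. They were taken by name from a table of 78298 genes measured in the mouse hippocampus. Of the 33 names, 32 were found as gene symbols, and Fcrls was found by its identifier, under the symbol Fcrl2. The count filter left 32 of them among 18600 tested genes. Cst7, an inhibitor of cysteine proteases that marks disease-associated microglia, had between 0 and 7 counts in a library and was not tested.

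Poly(A) RNA of whole hippocampus from male C57BL/6 mice, bought at 6 to 8 weeks of age and kept only if they preferred sucrose solution, was sequenced in 12 libraries. The 4 Control libraries are from unstressed mice given saline, and the 4 Model libraries from mice that met a different mild stressor each day (chronic unpredictable mild stress) for 28 days and were given saline. The 4 Treatment libraries are from mice under the same stress schedule that also received poricoic acid A (Poria cocos acid A in the sample labels) by mouth, through a tube into the stomach, at 20 mg/kg once a day for 14 days from day 15; it is a triterpenoid made by the fungus Poria cocos. No unstressed mice with the compound are among these samples. The labels give 4 mice a group for sequencing but do not tie a library to an animal, and the p-values therefore rest on the scatter among libraries.

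Library totals ranged from 17083260 to 27479083 estimated counts, and all libraries were treated as 1 batch. The library numbers of Treatment replicates 2 and 3 (1631 and 1636) lie apart from those of the other 10 libraries (1868 to 1898). RNA of the choroid plexus, a tissue that adjoins the hippocampus, differed between libraries: its 13 markers added up to 1811, 2228 and 2421 CPM in Control replicates 1 to 3, to 740.1 CPM in Control replicate 4, to between 618 and 894 CPM in Model, and to between 485 and 1499 CPM in Treatment. CPM are counts scaled for library size and composition. FPKM are also divided by transcript length, and only FPKM serve to compare levels between genes.

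Microglia survey the tissue with motile processes and depend on the receptor Csf1r, which binds the growth factors Csf1 and Il34. In the undisturbed brain they carry purinergic receptors, the fractalkine receptor Cx3cr1 and other surface proteins, and they make most of the brain's complement C1q. Around plaques, dying cells and damaged myelin they lower these homeostatic genes and raise another set, in part through the receptor Trem2 and its signalling adaptor Tyrobp. Several of the genes are not specific to microglia: Mertk and Axl are also found in astrocytes and vessel cells, Cd9 and Csf1 in other glia, and Spp1 in some neurons.

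Over the 12 libraries the most abundant of the 33 genes per length were Cd9 (mean 50.0 FPKM), the lysosomal protease Ctss (45.8 FPKM), Csf1r (42.5 FPKM), C1qa (39.3 FPKM), P2ry12 (38.8 FPKM) and C1qb (37.9 FPKM). The least abundant were Cd52 (2.68 FPKM), Itgb2 (2.01 FPKM), Ptprc (1.06 FPKM) and Cst7 (0.136 FPKM). The homeostatic genes were all detected in each library, while Cst7 was near the limit of detection. The 40 other microglia genes of the list used here were all tested. Markers of blood leukocytes stayed low: 12 of 13 were under 1 CPM in every library and the 13 together came to 0.990 to 1.56 CPM in Control, 0.792 to 1.49 CPM in Model and 1.62 to 3.64 CPM in Treatment. The 11 markers of border macrophages, the macrophages of meninges and perivascular spaces, came to 22.4 to 24.4 CPM in Control, 23.3 to 25.7 CPM in Model and 23.8 to 26.7 CPM in Treatment. In bulk tissue fewer microglia and less RNA per microglial cell cannot be told apart.

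Promoter windows were available for 25 of the 33 genes in a RefSeq table on the build GRCm38.p6, from 250 bases before to 50 after the transcription start. PU.1, the transcription factor that specifies macrophages and microglia, binds ETS sites with the core GGAA. The 7-letter form AGGAAGT, searched on both strands, was in the window of 10 of these 25 genes (40%) and of 10.7% of the 27025 genes with a window. Those 10 were C1qb, C1qc, Cst7, Ctss, Fcrls, Inpp5d, P2ry12, Ptprc, Sall1 and Spp1. The shorter GGAAGT, which AGGAAGT contains, was in 13 of 25 against 26.5% of all genes, the longer GAGGAAGT in 4 of 25 against 3.69%, and the TATA box letters TATAAA in 5 of 25 against 15.7%. The letters were chosen with the sequences in view, and a match is a description, not a binding site. Shown first are 4 windows with AGGAAGT, written 5′ to 3′ on the gene's strand with the match in capitals (ACTTCCT where it lies on the other strand): C1qb (chr4:136886151-136886450, minus strand) and C1qc (chr4:136892865-136893164, minus strand), neighbouring genes with the smallest p of the members in Treatment against Model, P2ry12 (chr3:59262936-59263235, minus strand) and Ctss (chr3:95526536-95526835, plus strand), 2 of the most abundant members. The match begins 53 bases before the start in C1qb, 195 in C1qc, 52 in P2ry12 and 2 in Ctss.
C1qb: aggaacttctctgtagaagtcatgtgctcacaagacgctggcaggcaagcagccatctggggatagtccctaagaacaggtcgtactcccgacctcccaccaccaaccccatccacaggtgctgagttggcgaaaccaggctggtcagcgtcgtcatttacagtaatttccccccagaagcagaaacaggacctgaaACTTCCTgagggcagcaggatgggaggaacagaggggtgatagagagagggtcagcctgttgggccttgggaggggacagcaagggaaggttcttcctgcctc
C1qc: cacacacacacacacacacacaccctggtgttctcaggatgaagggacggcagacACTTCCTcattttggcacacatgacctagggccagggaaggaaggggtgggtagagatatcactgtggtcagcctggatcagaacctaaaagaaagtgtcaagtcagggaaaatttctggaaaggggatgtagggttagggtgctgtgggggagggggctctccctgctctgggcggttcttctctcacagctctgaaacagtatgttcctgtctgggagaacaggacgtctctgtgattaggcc
P2ry12: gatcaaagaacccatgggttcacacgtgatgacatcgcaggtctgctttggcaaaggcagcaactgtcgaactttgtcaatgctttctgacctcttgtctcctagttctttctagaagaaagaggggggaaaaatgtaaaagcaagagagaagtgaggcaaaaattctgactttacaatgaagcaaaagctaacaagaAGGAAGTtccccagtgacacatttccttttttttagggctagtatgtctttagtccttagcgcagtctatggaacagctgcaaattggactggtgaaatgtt
Ctss: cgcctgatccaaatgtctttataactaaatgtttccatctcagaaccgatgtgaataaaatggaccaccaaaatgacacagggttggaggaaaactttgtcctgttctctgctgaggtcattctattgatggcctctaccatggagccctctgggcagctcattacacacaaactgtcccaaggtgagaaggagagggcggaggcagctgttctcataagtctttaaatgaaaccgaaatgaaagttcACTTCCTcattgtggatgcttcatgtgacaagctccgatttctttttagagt

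Shown next are 3 windows without AGGAAGT. Siglech (chr7:55767934-55768233, plus strand) had the smallest p of the members in Model against Control, and Axl (chr7:25788684-25788983, minus strand) and Mertk (chr2:128698665-128698964, plus strand) are receptors of the same family that had positive and negative fold changes in Treatment against Model.
Siglech: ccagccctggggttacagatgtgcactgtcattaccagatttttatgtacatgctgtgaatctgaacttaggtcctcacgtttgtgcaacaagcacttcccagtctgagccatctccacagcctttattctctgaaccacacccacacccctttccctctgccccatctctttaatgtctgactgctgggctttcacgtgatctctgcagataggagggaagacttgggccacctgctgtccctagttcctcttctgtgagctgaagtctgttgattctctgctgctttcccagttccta
Axl: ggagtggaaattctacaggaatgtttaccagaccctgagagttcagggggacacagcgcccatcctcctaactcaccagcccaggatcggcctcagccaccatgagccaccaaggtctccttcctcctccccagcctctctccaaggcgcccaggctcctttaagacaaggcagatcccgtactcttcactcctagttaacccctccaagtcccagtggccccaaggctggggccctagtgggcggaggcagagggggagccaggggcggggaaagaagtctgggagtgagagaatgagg
Mertk: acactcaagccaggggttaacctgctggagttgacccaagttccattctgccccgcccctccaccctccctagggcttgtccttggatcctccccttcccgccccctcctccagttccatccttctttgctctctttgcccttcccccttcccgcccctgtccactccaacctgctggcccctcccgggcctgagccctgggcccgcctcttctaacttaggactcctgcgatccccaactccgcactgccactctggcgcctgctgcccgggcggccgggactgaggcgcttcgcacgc

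How 28 days of stress change the microglia genes was asked with Model against Control. No microglia gene passed the threshold, an adjusted p under 0.05 over all genes in edgeR's quasi-likelihood test, and most were slightly lower in Model: 28 of 32 had a negative log2 fold change, against 52.7% of all genes tested. The members' median was -0.13 and that of all genes -0.01. All 3 C1q chains, all 4 genes of the Trem2 and Tyrobp signalling group and all 5 tested disease-associated and phagocytic genes were among the negative ones. The changes were small, from -0.66 (Aif1) to 0.30 (Cd52), with SE between 0.06 and 0.35.

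Over all genes 0.79% passed in this comparison, and 0 of the 32 members did. At an unadjusted p under 0.05, 5 members were lower (15.6%, against 7.85% of all genes) and 0 higher (against 7.72%). In both directions together the members' share was thus near that of all genes. DESeq2 called 1 member, Siglech, and limma-voom 0. In 6 members the 4 Model values lay below the 4 Control values without overlap (18.8%, against 5.46% of all genes). They were Siglech, Aif1, P2ry12, Trem2, Tyrobp and Ly86. In 0 members the Model values lay above without overlap, against 5.95% of all genes.

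The median over members of log2 CPM, around the mean of all libraries, was 0.00, 0.08, 0.09 and 0.07 in Control replicates 1 to 4. In Model it was -0.14 and -0.18 in replicates 1 and 2 but 0.00 and -0.01 in replicates 3 and 4. Model replicates 1 and 2 were thus the lowest libraries: 26 and 30 of the 32 members were below their mean there, against 16 and 18 in replicates 3 and 4. In Treatment the median was 0.03, -0.03, 0.16 and 0.01, and replicate 3 was the highest of all 12 libraries. Without Model replicate 1 or 2 the median fold change of Model against Control was -0.09 in either case.

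**Figure D1:**
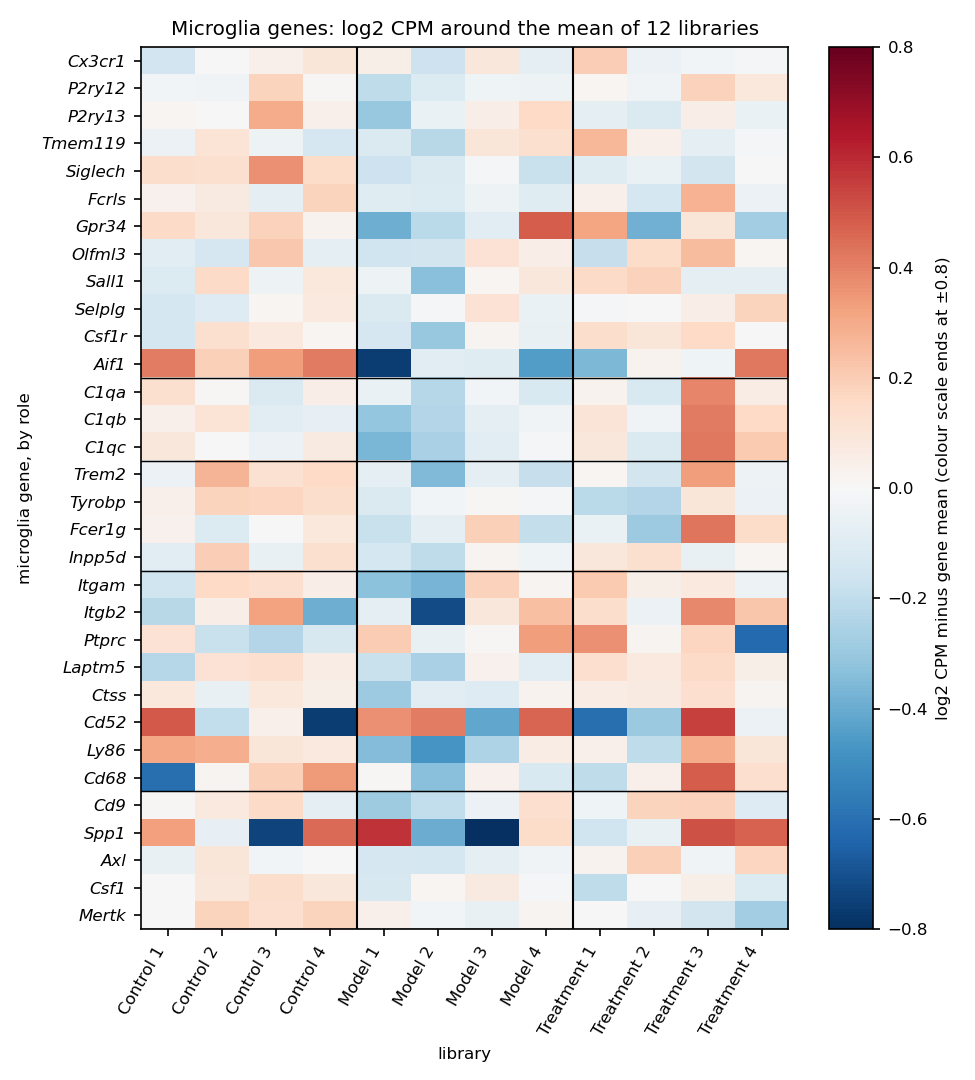
Each row is 1 of the 32 tested microglia genes, grouped by role, and each column 1 library; colour gives log2 CPM minus the gene's mean over the 12 libraries, with blue below and red above. Model replicates 1 and 2 are blue in most rows (26 and 30 of 32 below the mean), and Treatment replicate 3 is red in 24 of 32.

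**Figure D2:**
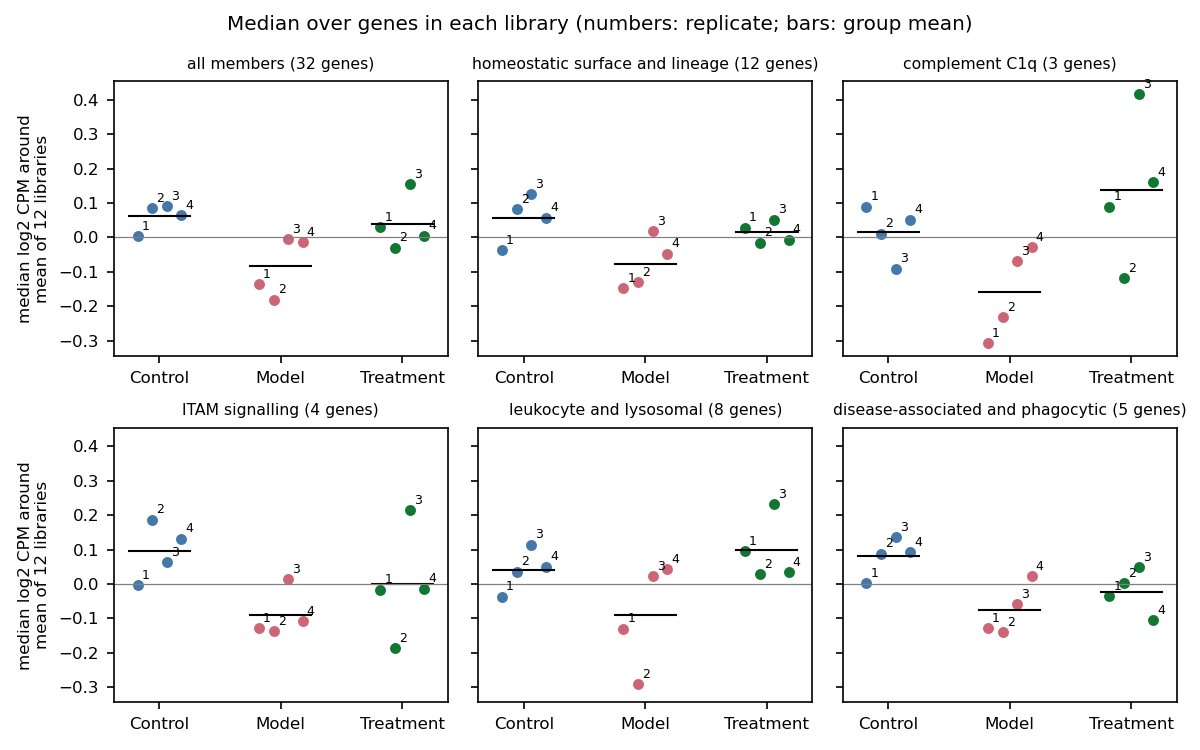
The median over genes of log2 CPM around the mean of the 12 libraries is plotted for each library, for all 32 tested members and for each of 5 roles; points are libraries numbered by replicate and bars are group means. In the panel of all members the Model libraries lie between -0.18 and 0.00 and the Control libraries between 0.00 and 0.09, and in the C1q panel Treatment replicate 3 stands at 0.42.

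Among the homeostatic surface and lineage genes, 10 of 12 had negative fold changes in Model, with a median of -0.12. Siglech, a receptor of the sialic acid binding family, measured 13.8, 13.7, 16.1 and 13.9 CPM in Control replicates 1 to 4, 11.2, 11.6, 12.4 and 11.1 CPM in Model replicates 1 to 4 and 11.7, 12.1, 11.3 and 12.5 CPM in Treatment replicates 1 to 4. All Model and all Treatment libraries lay below the lowest Control library, and Control replicate 3 was the highest. Its fold change was -0.31 ± 0.08 (adjusted p = 0.082) in Model against Control, 0.04 ± 0.08 (adjusted p = 0.84) in Treatment against Model and -0.27 ± 0.08 (adjusted p = 0.161) in Treatment against Control. Over the alternatives tried its adjusted p in Model against Control ran from 0.046 (DESeq2) to 0.454.

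Aif1, the calcium-binding protein Iba1 that serves as a histological marker of microglia, was measured at 3.495, 3.004, 3.32 and 3.52 CPM in Control replicates 1 to 4, 1.56, 2.48, 2.47 and 1.93 CPM in Model replicates 1 to 4 and 2.05, 2.69, 2.58 and 3.53 CPM in Treatment replicates 1 to 4. No Model library reached a Control library, and of the Treatment libraries only replicate 4 reached the Control range. The fold change was -0.66 ± 0.20 (adjusted p = 0.127) in Model and 0.37 ± 0.20 (adjusted p = 0.348) in Treatment against Model. The change in Model was the largest of any member and rests on 35 to 86 counts per library.

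P2ry12, the ADP receptor that steers microglial processes, was at 41.9, 41.7, 48.1 and 42.9 CPM in Control replicates 1 to 4, 37.0, 39.6, 41.6 and 41.4 CPM in Model replicates 1 to 4 and 43.0, 41.8, 48.4 and 45.2 CPM in Treatment replicates 1 to 4. The Model values lay just under both other groups, with -0.13 ± 0.07 (adjusted p = 0.385) against Control and 0.16 ± 0.07 (adjusted p = 0.217) in Treatment against Model. Csf1r, the survival receptor, was at 83.2, 100.1, 96.5 and 92.7 CPM in Control replicates 1 to 4, 83.4, 74.2, 93.1 and 88.0 CPM in Model replicates 1 to 4 and 101, 98.0, 102 and 91.3 CPM in Treatment replicates 1 to 4. Its values overlapped between all groups, with -0.14 ± 0.07 (adjusted p = 0.397) in Model and 0.21 ± 0.07 (adjusted p = 0.138) in Treatment against Model.

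Cx3cr1, the receptor for the neuronal chemokine fractalkine, differed little: it was at 42.0, 46.5, 48.0 and 49.8 CPM in Control replicates 1 to 4, 48.1, 41.6, 49.7 and 44.1 CPM in Model replicates 1 to 4 and 53.4, 45.2, 46.0 and 46.3 CPM in Treatment replicates 1 to 4. Treatment replicate 1 was the highest library, and the fold changes were -0.02 ± 0.08, 0.06 ± 0.08 and 0.03 ± 0.08 in Model against Control, Treatment against Model and Treatment against Control. Tmem119, a membrane protein largely specific to microglia, was at 20.3, 22.6, 20.4 and 19.1 CPM in Control replicates 1 to 4, 19.3, 18.01, 22.5 and 23.0 CPM in Model replicates 1 to 4 and 25.3, 21.6, 19.9 and 20.9 CPM in Treatment replicates 1 to 4. The groups overlapped in each comparison, with 0.01 ± 0.10, 0.08 ± 0.10 and 0.09 ± 0.10 in the same order. The signs for Cx3cr1 and Tmem119 in Model against Control turned when single libraries were left out.

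The remaining 6 homeostatic genes had fold changes in Model between -0.15 ± 0.08 (Fcrls, an Fc receptor-like protein) and 0.02 ± 0.07 (Selplg, the P-selectin ligand). P2ry13, a second ADP receptor, had -0.11 ± 0.10, Gpr34, a lysophosphatidylserine receptor, -0.12 ± 0.17, and Sall1, the transcription factor that keeps microglial identity, -0.08 ± 0.10. Olfml3, a secreted protein, had -0.01 ± 0.10. The groups overlapped in all 6.

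The 3 chains of C1q, which assemble in equal parts and start the classical complement cascade, lie next to each other on chromosome 4. In the coordinates of the table (GRCm39), each for the 1 transcript it lists, they are C1qb (136607440 to 136613498), C1qc (136617115 to 136620376) and C1qa (136623228 to 136626114). Per length they stood near each other: the FPKM ratio of C1qa to C1qb lay between 0.968 and 1.24 in all libraries and that of C1qc to C1qb between 0.744 and 0.892. C1qa was at 32.9, 30.4, 27.9 and 31.3 CPM in Control replicates 1 to 4, 29.0, 25.8, 29.7 and 27.7 CPM in Model replicates 1 to 4 and 30.8, 27.7, 39.6 and 31.4 CPM in Treatment replicates 1 to 4. C1qb was at 31.7, 33.3, 28.9 and 29.4 CPM in Control replicates 1 to 4, 24.9, 26.2, 29.4 and 30.2 CPM in Model replicates 1 to 4 and 33.02, 30.2, 41.2 and 34.4 CPM in Treatment replicates 1 to 4. C1qc was at 30.1, 28.2, 27.4 and 29.7 CPM in Control replicates 1 to 4, 22.0, 23.6, 26.7 and 28.1 CPM in Model replicates 1 to 4 and 30.1, 26.0, 37.9 and 32.7 CPM in Treatment replicates 1 to 4. Model replicates 1 and 2 were the lowest 2 libraries for C1qb and C1qc, and Treatment replicate 3 was the highest for all 3 chains.

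Of the 5 roles C1q had the highest median in Treatment against Model, with fold changes of 0.21 ± 0.09 (adjusted p = 0.259) for C1qa, 0.33 ± 0.09 (adjusted p = 0.0808) for C1qb and 0.34 ± 0.10 (adjusted p = 0.0988) for C1qc in edgeR. Each had an unadjusted p under 0.05, none passed after adjustment, and the groups overlapped for each. DESeq2 and a fit without the count filter called C1qb and C1qc. Without Treatment replicate 3 the values were 0.09, 0.23 and 0.23. In Model against Control they were -0.13 ± 0.09, -0.16 ± 0.09 and -0.20 ± 0.10, and in Treatment against Control 0.08 ± 0.09, 0.17 ± 0.09 and 0.14 ± 0.10. Any pair of these comparisons shares the libraries of 1 group, so the values are not independent of each other.

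**Figure D3:**
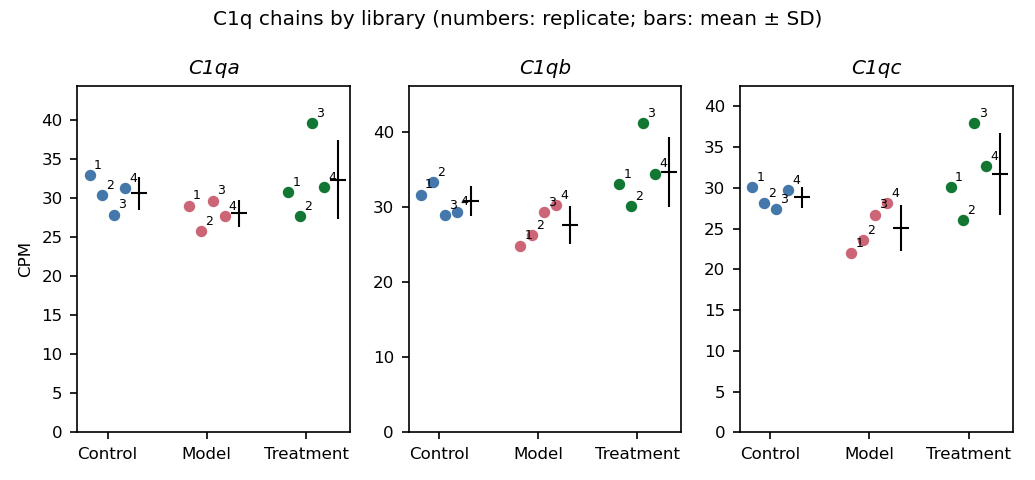
CPM of the 3 C1q chains in each library (points, numbered by replicate) with the group mean ± SD (n = 4). Model replicates 1 and 2 are lowest for C1qb and C1qc, and Treatment replicate 3 is highest in each panel at 37.9 to 41.2 CPM.

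Trem2 is a lipid-sensing receptor that signals through Tyrobp, an adaptor with an ITAM motif. Fcer1g is the matching adaptor of Fc receptors, and the phosphatase Inpp5d dampens both. Trem2 was at 8.64, 10.7, 9.72 and 9.97 CPM in Control replicates 1 to 4, 8.50, 7.00, 8.48 and 7.85 CPM in Model replicates 1 to 4 and 9.02, 8.06, 11.3 and 8.66 CPM in Treatment replicates 1 to 4. Each Model library lay below each Control library (-0.30 ± 0.12, adjusted p = 0.23), and the Treatment libraries overlapped both groups (0.21 ± 0.12 against Model). Tyrobp was at 7.57, 8.36, 8.33 and 8.14 CPM in Control replicates 1 to 4, 6.81, 7.27, 7.41 and 7.34 CPM in Model replicates 1 to 4 and 6.36, 6.28, 7.88 and 7.15 CPM in Treatment replicates 1 to 4. It was likewise below Control in all Model libraries (-0.17 ± 0.10, adjusted p = 0.457), and 3 of 4 Treatment libraries lay below all Control libraries (-0.23 ± 0.10, adjusted p = 0.341 against Control). Tyrobp is 1 of the 7 members with a negative fold change in Treatment against Model (-0.06 ± 0.10). Inpp5d had -0.14 ± 0.09 and Fcer1g -0.06 ± 0.15 in Model against Control, with overlapping groups.

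Of the 8 leukocyte and lysosomal genes, 6 had negative fold changes in Model (median -0.13). Ly86, which pairs with a Toll-like receptor homologue, was at 8.98, 8.87, 7.74 and 7.64 CPM in Control replicates 1 to 4, 5.69, 5.23, 6.10 and 7.55 CPM in Model replicates 1 to 4 and 7.43, 6.28, 8.89 and 7.75 CPM in Treatment replicates 1 to 4. All Model libraries lay below all Control libraries, replicate 4 only just (-0.43 ± 0.13, adjusted p = 0.134), and the Treatment libraries overlapped both (0.30 ± 0.14, adjusted p = 0.248 against Model). Ctss had -0.15 ± 0.07 in Model and 0.18 ± 0.07 (adjusted p = 0.164) in Treatment against Model. Laptm5, a lysosomal membrane protein of blood cells, had -0.15 ± 0.08 in Model and 0.22 ± 0.08 (adjusted p = 0.154) in Treatment against Model, where the 4 Treatment libraries lay above the 4 Model libraries. The integrin chains Itgam and Itgb2, which together form complement receptor 3, had -0.16 ± 0.11 and -0.03 ± 0.20 in Model. Ptprc, the phosphatase CD45, had 0.23 ± 0.18, Cd52, a short surface glycoprotein, 0.30 ± 0.35, and the lysosomal glycoprotein Cd68 -0.12 ± 0.19. Cd52 rests on 8 to 20 counts a library.

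None of the 5 tested disease-associated and phagocytic genes had a positive fold change in Model. Spp1, the secreted phosphoprotein osteopontin, varied most, at 7.82, 5.97, 3.73 and 8.54 CPM in Control replicates 1 to 4, 9.30, 4.74, 2.98 and 6.91 CPM in Model replicates 1 to 4 and 5.59, 5.98, 8.89 and 8.66 CPM in Treatment replicates 1 to 4. The groups overlapped in each comparison (-0.13 ± 0.30 in Model, 0.28 ± 0.30 in Treatment against Model). Cst7 had 0, 3, 3 and 4 counts in Control replicates 1 to 4, 7, 1, 0 and 2 in Model and 2, 2, 0 and 2 in Treatment, too few for a comparison. Cd9, a tetraspanin, had -0.13 ± 0.09 in Model and 0.15 ± 0.09 in Treatment against Model. Csf1, the growth factor, was at 26.0, 27.8, 28.82 and 27.8 CPM in Control replicates 1 to 4, 23.9, 26.4, 27.4 and 25.8 CPM in Model replicates 1 to 4 and 22.7, 26.1, 27.02 and 24.2 CPM in Treatment replicates 1 to 4. Its groups overlapped, with -0.09 ± 0.07 (adjusted p = 0.575) in Model and -0.14 ± 0.07 (adjusted p = 0.389) in Treatment against Control.

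Axl and Mertk are receptor tyrosine kinases that let phagocytes bind dying cells through the bridging ligands Gas6 and Pros1. Axl was at 51.3, 57.2, 52.6 and 53.7 CPM in Control replicates 1 to 4, 48.7, 48.5, 50.7 and 52.5 CPM in Model replicates 1 to 4 and 54.7, 61.1, 52.6 and 60.1 CPM in Treatment replicates 1 to 4. All Treatment libraries lay above all Model libraries (Treatment replicate 3 and Model replicate 4 nearly touched), with a fold change of 0.19 ± 0.06 (adjusted p = 0.119). Mertk was at 40.7, 46.0, 44.7 and 46.0 CPM in Control replicates 1 to 4, 41.8, 40.1, 39.0 and 41.3 CPM in Model replicates 1 to 4 and 40.6, 38.9, 36.7 and 33.5 CPM in Treatment replicates 1 to 4. All Treatment libraries lay below all Control libraries, again narrowly (-0.25 ± 0.07, adjusted p = 0.131), and against Model it had -0.12 ± 0.07 (adjusted p = 0.381). The FPKM ratio of Axl to Mertk had medians of 1.20 in Control, 1.26 in Model and 1.44 in Treatment, with ranges of 1.11 to 1.31, 1.23 to 1.35 and 1.28 to 1.77. This pair was set side by side after its values were seen.

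Gas6 was the single gene among 9 ligands of the receptors that passed in a comparison. It was at 81.8, 90.5, 84.5 and 72.6 CPM in Control replicates 1 to 4, 65.9, 64.8, 63.5 and 62.6 CPM in Model replicates 1 to 4 and 66.1, 81.1, 85.6 and 75.6 CPM in Treatment replicates 1 to 4. It fell in Model against Control (-0.36 ± 0.08, adjusted p = 0.0472), and in Treatment all libraries lay above all Model libraries (0.26 ± 0.08, adjusted p = 0.0946). The call ended without Control replicate 1, 2 or 3, any 1 Model library or Treatment replicate 4 (adjusted p from 0.0611 to 0.162). Once the choroid plexus score was added as a covariate, the fold change in Model was -0.17 (adjusted p = 0.538). The call also ended in limma-voom (0.0572) and on log2 FPKM (0.127 and 0.128 with pseudocounts of 0.1 and 1). Pros1 was at 9.51 to 12.0 CPM over the 12 libraries.

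**Figure D4:**
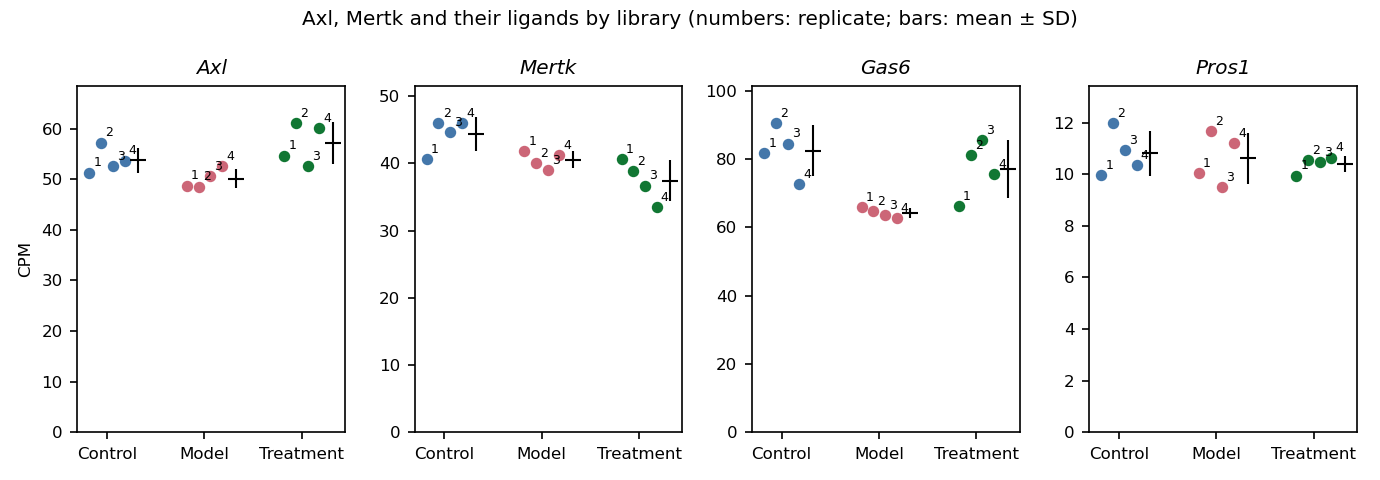
CPM of the receptors Axl and Mertk and of their ligands Gas6 and Pros1 in each library (points, numbered by replicate) with the group mean ± SD (n = 4). The Treatment libraries are above the Model libraries for Axl and Gas6, below the Control libraries for Mertk, and among the others for Pros1.

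Of the 9 ligands, 6 had positive fold changes in Model. Cx3cl1, the neuronal ligand of Cx3cr1, was at 488 ± 14.1 CPM in Control, 543 ± 39.6 CPM in Model and 592 ± 32.5 CPM in Treatment (SD, n = 4 each). Its fold change in Treatment against Control was 0.28 ± 0.06 (adjusted p = 0.0822), and the 4 Treatment libraries lay above the 4 Control libraries. Il34, the neuronal ligand of Csf1r, had 0.21 ± 0.07 (adjusted p = 0.151) in Model, where Csf1 had -0.09 ± 0.07. The FPKM ratio of Il34 to Csf1 was 2.78 to 3.90 in Control, 3.98 to 5.57 in Model and 2.89 to 4.13 in Treatment. It is 1 of several FPKM ratios computed and was not tested. FPKM also depend on the implied length, which for Csf1 differed by up to 1.15-fold between libraries. Tgfb2 had -0.31 ± 0.09 (adjusted p = 0.0904) in Treatment against Model.

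The effect of the compound under stress was read from Treatment against Model. Here 25 of 32 members had positive fold changes, against 50.4% of all genes, with a median of 0.15 against 0.00. No member passed, where 1.88% of all genes did. At an unadjusted p under 0.05, 9 members were higher (28.1%, against 9.78% of all genes) and 0 lower (against 8.69%). The 9 were C1qa, C1qb, C1qc, Csf1r, P2ry12, Laptm5, Ctss, Ly86 and Axl. DESeq2 called 2 members and limma-voom 0. In 3 members, P2ry12, Laptm5 and Axl, the Treatment values lay above the Model values without overlap (9.38%, against 5.14% of all genes). In 0 members they lay below (against 4.36%). In both directions together this share of the members was near that of all genes. By role, the median was 0.33 for C1q, 0.20 for leukocyte and lysosomal genes, 0.15 for disease-associated and phagocytic genes, 0.14 for Trem2 and Tyrobp signalling and 0.09 for homeostatic genes.

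Without Treatment replicate 3 the median of this comparison was 0.10, and the count of members with positive fold changes was again 25. Without Treatment replicates 2 and 3 together the median was 0.13. Without Model replicate 2 or 3 no gene of the whole table passed in Treatment against Model.

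Treatment against Control asked how treated stressed mice differ from unstressed ones. The median of the members was 0.03, against -0.01 for all genes, with 21 positive (65.6%, against 47.9% of all genes) and 11 negative. No member passed, and 0.102% of all genes did. At an unadjusted p under 0.05, 3 members, Mertk, Siglech and Tyrobp, were lower (9.38%, against 6.56% of all genes) and 0 higher (against 7.31%). In both directions together the members' share was below that of all genes. DESeq2 called 1 member, Mertk, and limma-voom 0. In 2 members, Mertk and Siglech, the Treatment values lay below the Control values without overlap (6.25%, against 3.24% of all genes). In 0 members they lay above (against 3.99%), so both directions together again gave no excess over all genes. The median was 0.0028 without Control replicate 1 and -0.00043 without Treatment replicate 3, where 16 members were positive and 16 negative.

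**Figure D5:**
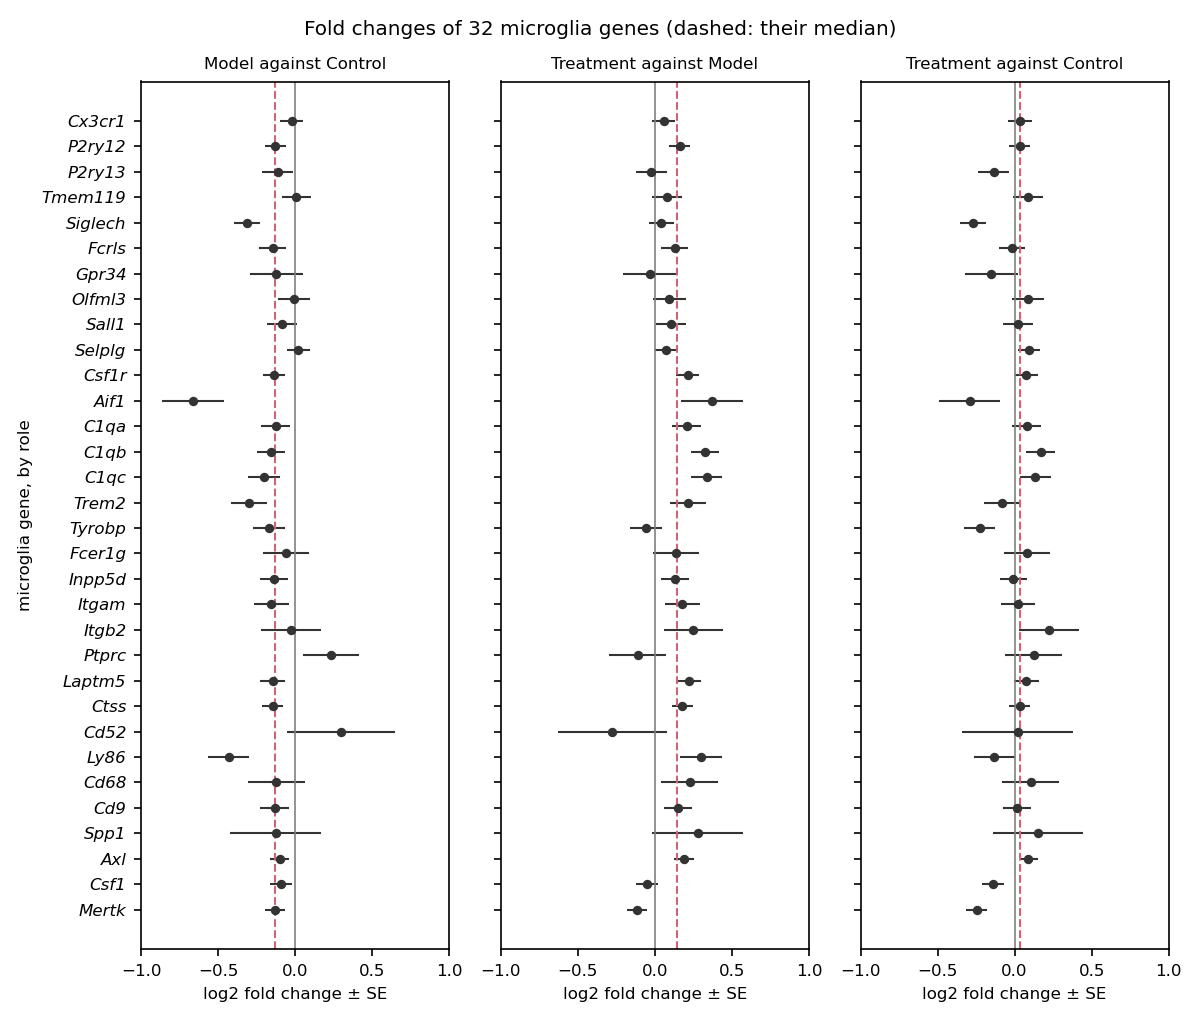
Log2 fold change ± SE (edgeR, n = 4 libraries a group) of the 32 tested members in the 3 comparisons, ordered by role; the dashed line is the median over members. The dashed line lies at -0.13 in Model against Control, 0.15 in Treatment against Model and 0.03 in Treatment against Control, and 0 genes passed in any panel.

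A list of 40 other microglia genes, which shares no gene with the members, was described in the same way. In Model against Control 30 had negative fold changes (75%, against 52.7% of all genes, median -0.08). In Treatment against Model 31 had positive ones (77.5%, against 50.4%, median 0.15). Against Control, 24 were positive in Treatment (60%, against 47.9%, median 0.02). None passed in any comparison. At an unadjusted p under 0.05, 1 was higher (2.5%, against 7.72% of all genes) and 3 lower (7.5%, against 7.85%) in the first. In the second 12 were higher (30%, against 9.78%) and 0 lower (against 8.69%). In the third 5 were higher (12.5%, against 7.31%) and 0 lower (against 6.56%). The lower genes of the first comparison were thus near the share of all genes. These values come from the same 12 libraries as those of the members. The smallest p in Model against Control was that of Cd33, a sialic acid binding receptor (-0.33 ± 0.12, adjusted p = 0.212).

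Markers of other cells also differed between the groups, and their part in the microglial values was not tested. In Model against Control all 13 choroid plexus markers had negative fold changes (median -1.21, 1 passed, Sostdc1). With their score as a covariate the median of the microglia genes was -0.11 with 26 negative. The score was 0.81, 1.15 and 1.23 in Control replicates 1 to 3, -0.31 in Control replicate 4 and -0.63 to -0.11 in Model. Only Control replicate 4 lay within the Model range, so this fit cannot tell choroid plexus RNA and stress apart. All 10 neuron markers were positive in Model (median 0.11, 0 passed, smallest p for Gad1), 9 of 10 oligodendrocyte markers negative (median -0.15, 1 passed, Opalin) and 8 of 10 astrocyte markers negative (median -0.08, 0 passed, smallest p for Aqp4). Of the 10 endothelial markers 7 were positive and 3 negative in Model (median 0.05), and 1 passed, Itm2a, which fell (-0.31 ± 0.07, adjusted p = 0.0441). The call for Opalin ended without Control replicate 1 or 2 or Model replicate 2 or 3 (adjusted p from 0.0664 to 0.0816), that for Sostdc1 without any 1 of Control replicates 1 to 3 or of the Model libraries (0.084 to 0.138), that for Itm2a without any 1 Control or Model library or Treatment replicate 4 (0.0572 to 0.127), and all 3 with the covariate and on log2 FPKM. For Sostdc1 and Itm2a limma-voom ended the call as well. With the covariate Sostdc1 had -0.30 (adjusted p = 0.638). In Treatment against Model all 10 endothelial markers were positive (median 0.30) and 2 rose, Pecam1 (0.57 ± 0.11, adjusted p = 0.0256) and Slco1a4 (0.39 ± 0.08, adjusted p = 0.0246); both calls ended without Model replicate 2 or 3 or Treatment replicate 2 (adjusted p from 0.0663 to 0.108). Both also ended without Treatment replicates 2 and 3 together and on log2 FPKM, and that for Slco1a4 with only the 8 libraries compared; over all alternatives the adjusted p reached 0.121 for Pecam1 and 0.21 for Slco1a4. The summed level of the endothelial markers was 209.6 to 239 CPM in Control, 214 to 234 CPM in Model and 253 to 294 CPM in Treatment. Of the 10 astrocyte markers 5 were positive and 5 negative in Treatment against Model (median 0.00), and 1 rose, Aldh1l1 (0.32 ± 0.07, adjusted p = 0.0398), a call that ended without Control replicate 1 or 4, Model replicate 1, 2 or 3, or Treatment replicate 2, 3 or 4 (adjusted p from 0.0501 to 0.147), and also without Treatment replicates 2 and 3 together, on log2 FPKM and with only the 8 libraries compared (up to 0.153). No defining marker of choroid plexus, neurons, astrocytes, oligodendrocytes or endothelium was under 1 CPM in all libraries.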

How the data were processed

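The deposited table gives the authors' estimated count and FPKM for each gene and library, per the file headers; the counts were not scaled to a common total, and FPKM is divided by gene length and library total. The length implied by counts and FPKM differs between libraries, by up to 2.56-fold among the members (Inpp5d). The submitters' processing notes name Salmon 1.10.1 and STAR 2.7.10a, the trimmers Trim Galore 0.6.7 and cutadapt 3.4, the read check FastQC 0.12.1 and the build GRCm39, without their order. The annotation release, and whether strand was kept, are not given in the sources used here.

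Estimated counts were rounded and fitted in edgeR 4.0.16 (R 4.3.3): filterByExpr, TMM scaling and a single quasi-likelihood fit over all 12 libraries with 1 coefficient for each group. Benjamini-Hochberg adjustment ran over all 18600 tested genes. SE is the fold change divided by the root of its F statistic. The procedure was tested on simulated data for Model against Control and Treatment against Model. Of genes changed by 0.2 in log2, 4% were called in each. At 0.4 the shares were 32% and 34%, at 0.8 they were 56% and 54%, and at 1.5 they were 82% and 86%. Among unchanged genes 8 and 6 were called. Changes of 0.2 and 0.4 were thus mostly missed, and many of 0.8 as well, so a gene that did not pass may still differ. Members, lists and comparisons were chosen with earlier results of these data known. Full values are given for 9 fixed members and for the 4 of smallest p in each comparison; from the other lists, genes that passed and the 1 of smallest p are named, except for results that are not reported here. Alternatives were RLE scaling, DESeq2 1.42.0, limma-voom (limma 3.58.1), other filters, a replicate block, a choroid plexus covariate, fewer libraries, and log2 FPKM with pseudocounts of 0.1 and 1. No alternative scaling moved the median of all genes by over 0.1. Promoters are from RefSeq (GRCm38.p6). Figures were drawn with matplotlib 3.10.9.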

Additional observations from a re-analysis of the deposited data

Results flagged for a closer look

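Among the 33 genes in 3 groups, 99 groups of 4 libraries were examined for a library that stands apart from the other 3, and 6 had one. Chance gives about 1 in 20, so 6 of 99 is near that share. Control replicate 3 was the high library in 3 of them: Siglech at 16.1 CPM against 13.7 to 13.9 CPM in the other Control libraries, P2ry13 at 18.7 CPM against 15.2 to 15.7 CPM, and Olfml3 at 23.6 CPM against 18.5 to 19.2 CPM. Treatment replicate 1 was high for Cx3cr1, at 53.4 CPM against 45.2 to 46.3 CPM. Model replicate 3 was low for Cd52, at 0.466 CPM against 0.801 to 0.858 CPM. Cst7 had 0 CPM in Treatment replicate 3 against 0.0862 to 0.103 CPM, a difference of 2 counts.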

How the results depend on the processing

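The median fold change of the members kept its sign under every alternative in Model against Control and in Treatment against Model. No alternative for these comparisons left out both Model replicates 1 and 2, the lowest libraries, so dependence on that pair was not tested. In Treatment against Control the median was -0.00043 without Treatment replicate 3. Leaving out 1 library gave -0.15 to -0.09, 0.10 to 0.18 and -0.00043 to 0.07 in the 3 comparisons. The count of members called, 0 in each comparison, became 1, 2 and 1 in DESeq2 and 2 in Treatment against Model without a filter; leaving out 1 library gave 0 in each. In Model against Control, Treatment against Model and Treatment against Control the counts of all genes called, 147, 350 and 19, ran from 8 to 275, 0 to 483 and 0 to 78 when 1 library was left out. They were 692, 1099 and 440 in DESeq2, and 783, 1090 and 748 without a filter. With a replicate block they were 228, 431 and 118, and without Treatment replicates 2 and 3 together 306, 130 and 135. With only the 8 libraries compared they were 438, 96 and 2. FPKM gave 5, 114 and 14 (pseudocount 0.1) or 5, 111 and 9 (pseudocount 1). The choroid plexus covariate gave 3, 363 and 0. RLE scaling gave 12 in Treatment against Control, and limma-voom 88 in Model against Control and 9 in Treatment against Control. The cause of these differences was not tested.

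Over all tested genes, same-numbered libraries deviated little together from their group means (correlations from -0.04 to 0.11). These values cannot exclude that the replicate number is a pairing. The main fit used no pairing, and the replicate block called 0 members in each comparison.

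Some signs turned. With the choroid plexus covariate Cx3cr1 was -0.043 and Spp1 -0.23 in Treatment against Control. With FPKM (pseudocounts 0.1 and 1) Tyrobp was 0.0092 and 0.0089 in Treatment against Model and P2ry12 -0.023 and -0.022 in Treatment against Control. When 1 library was left out the ranges that crossed 0 were, in Model against Control, -0.065 to 0.024 for Cx3cr1, -0.046 to 0.071 for Tmem119 and -0.418 to 0.105 for Spp1. In Treatment against Model it was -0.0044 to 0.1001 for Cx3cr1. In Treatment against Control they were -0.016 to 0.068 for Cx3cr1, -0.029 to 0.312 for Spp1, -0.010 to 0.078 for P2ry12 and -0.034 to 0.146 for C1qa. Counts of 8 to 20 a library for Cd52 and 0 to 7 for Cst7 limit what can be seen for these.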

Other observations

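Of 17 inflammatory cytokine and inflammasome genes, 10 were under 1 CPM in every library and 9 were tested. Tnf, Il1b, Il6 and the chemokines Ccl2, Ccl3, Ccl4 and Ccl12 were among the 8 that were too low. None of the 9 passed in any comparison, where the smallest p values were those of Il1a in Model against Control (-0.58 ± 0.33, adjusted p = 0.426), Icam1, an adhesion molecule, in Treatment against Model (0.35 ± 0.21, adjusted p = 0.384) and Pycard, the inflammasome adaptor, in Treatment against Control (-0.45 ± 0.21, adjusted p = 0.357), with 0 genes at an unadjusted p under 0.05 in the first 2 comparisons and 1 in the third. Their median fold changes were -0.05, 0.11 and 0.09.

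Of 20 other genes of disease-associated microglia, 17 were tested and Clec7a, Itgax and Ch25h were too low. In Treatment against Model 1 fell, Lpl, a lipase that other brain cells also make, at 30.5, 28.1, 34.7 and 34.2 CPM in Control replicates 1 to 4, 32.9, 36.6, 40.0 and 35.4 CPM in Model replicates 1 to 4 and 25.8, 25.2, 30.8 and 29.4 CPM in Treatment replicates 1 to 4. Its fold change was -0.38 ± 0.09 (adjusted p = 0.04), all Treatment libraries lay below all Model libraries and overlapped the Control range, and the call ended without Control replicate 1 or 4, Model replicate 2, 3 or 4, or Treatment replicate 1, 2 or 4 (adjusted p from 0.0503 to 0.139). It ended as well without Treatment replicates 2 and 3 together (0.0999), with only the 8 libraries compared (0.0646) and on log2 FPKM, where the fold change was -0.22 and -0.20 with pseudocounts of 0.1 and 1 (adjusted p = 0.213 and 0.219). In Model against Control none passed; Ccl6, a chemokine, had -1.22 ± 0.33 (adjusted p = 0.0886) at 0.233 to 1.88 CPM in these libraries. In Treatment against Control the smallest p was that of Lgals3, a galectin (-1.01 ± 0.31, adjusted p = 0.168). The list's medians were -0.07, 0.06 and 0.04 in the 3 comparisons. Among 9 TGF-beta receptor and Smad genes, which belong to the pathway that maintains homeostatic microglia, none passed (medians 0.01, -0.02 and 0.01). Smad3 had 0.20 ± 0.06 (adjusted p = 0.105) in Model against Control, and Itgav, an integrin chain, had 0.25 ± 0.12 (adjusted p = 0.259) in Treatment against Model and 0.23 ± 0.12 (adjusted p = 0.39) in Treatment against Control.

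Of the border macrophage markers 6 were tested and none passed. In Model against Control 3 were positive and 3 negative (median 0.03), and 4 were positive and 2 negative both in Treatment against Model (median 0.09) and in Treatment against Control (median 0.12). The smallest p values were those of Lyve1 and Cbr2: Lyve1 had 0.52 ± 0.26 (adjusted p = 0.361) in Model against Control and 0.61 ± 0.26 (adjusted p = 0.314) in Treatment against Control, and Cbr2 had 0.60 ± 0.39 (adjusted p = 0.445) in Treatment against Model. Of the blood leukocyte markers Trbc2, a T cell receptor chain, was at 0.534, 0.579, 0.233 and 0.245 CPM in Control replicates 1 to 4, 0.222, 0.275, 0 and 0.0858 CPM in Model replicates 1 to 4 and 2.15, 0.557, 0.101 and 2.07 CPM in Treatment replicates 1 to 4, with 3.06 ± 0.79 (adjusted p = 0.0585) in Treatment against Model. The Model values were near the limit of detection, and Treatment replicate 3 lay within the Model range.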
